A study of Mus musculus with 16 samples.

Results

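The genes described here are 55 genes of mitosis, the kinetochore and cytokinesis, followed in AND CD4+ T cells that met antigen in mice for different lengths of time. They were chosen by a list of symbols, with kinesins left out, and all 55 were found among the 18193 genes of the array. The list covers 126 probe sets (short stretches of a transcript that the array measures together), and the brightest probe set over all 16 arrays stands for each gene. AND T cells carry the genes of 1 T cell receptor, specific for a moth cytochrome c peptide. Lymph node cells of such donors, marked by CD90.1, were transferred into mice of the B10.BR background, and the animals were 6 to 8 weeks old. The CD4+CD90.1+ cells were sorted back 60 h later.

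Recipients with antigen carried the Ii-rTA and TIM transgenes, with which doxycycline switches the peptide on in antigen-presenting cells, and the titles call their exposure short (transient antigen) or long (persistent antigen). Recipients without antigen carried TIM but not Ii-rTA and had no doxycycline, so genotype and doxycycline differ with antigen and cannot be told apart from it. In each of these 3 regimes mice received PBS or FGK45.5, an agonist antibody to CD40, a receptor through which dendritic cells can be activated. With PBS every regime had 3 arrays. With anti-CD40 there were 2 arrays without antigen, 2 with transient and 3 with persistent antigen. The labels leave unsaid whether replicates are separate animals, and the p-values cover only the spread among these arrays, which may be partly technical.

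A cell that divides condenses its chromosomes, attaches them through kinetochores to a spindle of microtubules, and waits at the spindle assembly checkpoint until every chromosome is attached. The anaphase-promoting complex (APC/C) then marks securin and cyclin B for destruction, separase cuts cohesin, and a contractile ring parts the daughter cells. Most messages for this machinery are low in resting T cells and accumulate from S phase to mitosis once a T cell cycles, under the MuvB complex with B-MYB and FOXM1. In the RNA of a sorted population, fewer dividing cells and less message per dividing cell cannot be told apart.

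MuvB and its partners bind a short element called CHR, and NF-Y binds the CCAAT box, so the promoters of the genes were read for both. The words searched were CCAAT and, for CHR, TTTGAA or TTCGAA, on both strands, in RefSeq windows of 300 bases (250 before and 50 after the start, GRCm38.p6). For 46 of the 55 genes the table has an entry, and the first start of each was used. Of these 46 promoters, 33 (71.7%) held a CCAAT, against 38.1% of the promoters of 14406 other genes of the array and 37.4% of all 32851 promoters in the table. A CHR word was found in 32 (69.6%), against 14.9% and 19.2%, and both motifs in 29 (63.0%), against 5.95% and 7.53%. The median GC content was 58.67% in the 46 promoters and in those of the other array genes. Of the 32 promoters with a CHR word, 29 (90.6%) held one within 50 bases of the start, against 519 of 2142 (24.2%) in the other array genes.

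8 promoters are printed because they carry the pattern in its clearest form, belong to genes whose values are given below, or lack both words. Each stretch has 120 bases before and 15 after the start, 5′ to 3′ on the gene's strand, with the motif words in capitals (ATTGG and TTCAAA are CCAAT and TTTGAA on the other strand). They lie at chr9:70421540-70421674, minus strand (Ccnb2), chr10:69352898-69353032, minus strand (Cdk1), chr4:118437329-118437463, minus strand (Cdc20), chr9:83834569-83834703, plus strand (Ttk), chr10:5805451-5805585, minus strand (Fbxo5), chr1:139454653-139454787, plus strand (Aspm), chr7:131560250-131560384, plus strand (Bub3) and chr11:117849117-117849251, plus strand (Birc5), all in GRCm38.p6.
Ccnb2: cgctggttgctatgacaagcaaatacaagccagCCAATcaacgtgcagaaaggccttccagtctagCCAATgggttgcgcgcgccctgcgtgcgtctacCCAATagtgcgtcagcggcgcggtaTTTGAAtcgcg
Cdk1: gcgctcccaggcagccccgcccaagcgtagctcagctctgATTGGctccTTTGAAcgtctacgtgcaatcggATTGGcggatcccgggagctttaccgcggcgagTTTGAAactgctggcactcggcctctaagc
Cdc20: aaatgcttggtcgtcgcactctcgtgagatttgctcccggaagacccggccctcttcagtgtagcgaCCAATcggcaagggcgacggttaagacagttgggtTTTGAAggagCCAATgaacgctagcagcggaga
Ttk: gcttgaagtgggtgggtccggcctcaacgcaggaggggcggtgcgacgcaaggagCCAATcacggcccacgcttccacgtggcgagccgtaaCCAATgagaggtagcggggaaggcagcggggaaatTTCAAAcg
Fbxo5: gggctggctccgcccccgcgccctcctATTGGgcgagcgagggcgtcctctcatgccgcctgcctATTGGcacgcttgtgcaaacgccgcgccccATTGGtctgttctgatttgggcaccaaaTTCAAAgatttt
Aspm: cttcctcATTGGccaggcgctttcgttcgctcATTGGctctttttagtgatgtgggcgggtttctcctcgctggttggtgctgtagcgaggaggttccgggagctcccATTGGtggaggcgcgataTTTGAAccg
Bub3: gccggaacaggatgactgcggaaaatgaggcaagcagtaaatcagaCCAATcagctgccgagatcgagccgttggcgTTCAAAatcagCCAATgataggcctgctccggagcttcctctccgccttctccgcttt
Birc5: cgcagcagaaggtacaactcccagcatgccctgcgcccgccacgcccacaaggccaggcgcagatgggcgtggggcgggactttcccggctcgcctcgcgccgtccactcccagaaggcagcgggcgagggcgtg

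In Ccnb2 the CCAAT words begin 87, 54 and 21 bases before the start and the CHR word 5 bases after it. Fbxo5 has the same arrangement on the other strand, with CCAAT words at 93, 55 and 25 bases before and a CHR word 4 bases after the start. Bub3 carries both motifs as well, with CCAAT at 74 and 32 bases and CHR at 43 bases before the start. Birc5 has neither word in its whole window, which says only that these letters are not there. The genes with and without the motifs lay close together in their response. The median difference between persistent and no antigen with PBS was 2.70 for the 29 genes with both motifs and 2.40 for the 10 with neither, over ranges of 0.61 to 3.56 and 0.68 to 3.75. For transient against no antigen the medians were 0.83 and 0.75.

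Mean intensity per array lay between 83.5 and 121, and the replicate 2 arrays were the dimmest (83.5 to 101, against 106 to 121). Arrays with the same replicate number deviated together from their group means, so a second limma fit held the replicate number as a block, and counts are given from both. All 9 measured CD4 T cell markers had group means above the median probe set (4.37 on the log2 scale) in all 6 groups, and 2 of the 9 fell under persistent antigen with PBS (3 with the block). The summed intensity of 9 B cell markers was 261 to 311 without antigen and 348 to 475 under persistent antigen with PBS, and 0 to 1 of them was called higher, and 0 to 3 lower, in any comparison in either fit. Between these 2 groups 4 of the 9 had a positive difference, and their median was −0.07. The largest was that of Cd22 (1.44, limma adjusted p = 0.0040 without the block). Under persistent antigen with PBS 7 of the 9 had group means below the median probe set. For 11 dendritic cell and macrophage markers the sums were 248 to 397 and 278 to 398, and 0 of 11 was called in any comparison. For 7 NK and CD8 T cell markers they were 331 to 437 and 322 to 1130, with a difference of 2.33 for Gzma and −1.32 for Eomes, which activated T cells can express too. The sum of 5 plasma cell markers moved with antigen from 407 to 731 without it to 680 to 1616 under persistent antigen with PBS. Its part in the results was not tested. Of the 5, 3 had a positive difference there, and Sdc1 had the lowest (−0.31). Over all arrays Sdc1 (4.56 to 5.37) and Jchain (3.425 to 4.60) stayed near the median probe set. Irf4, Prdm1 and Xbp1 of this list are also expressed in activated T cells.

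Across the arrays most of the 55 genes moved together, low without antigen, intermediate with some overlap after transient antigen with PBS, and high in the other 3 groups with antigen. The median over the 55 genes was 6.44, 5.74 and 5.79 in the arrays without antigen and PBS and 6.99 and 5.50 in those with anti-CD40. After transient antigen it was 7.49, 6.88 and 6.32 with PBS and 8.66 and 8.40 with anti-CD40. Persistent antigen gave 8.90, 8.51 and 8.50 with PBS and 8.91, 8.79 and 8.49 with anti-CD40. No array of these last 3 groups came below 8.40, and no array of the other 3 groups came above 7.49. The median of all genes per array stayed between 4.84 and 5.02.

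**Figure D1:**
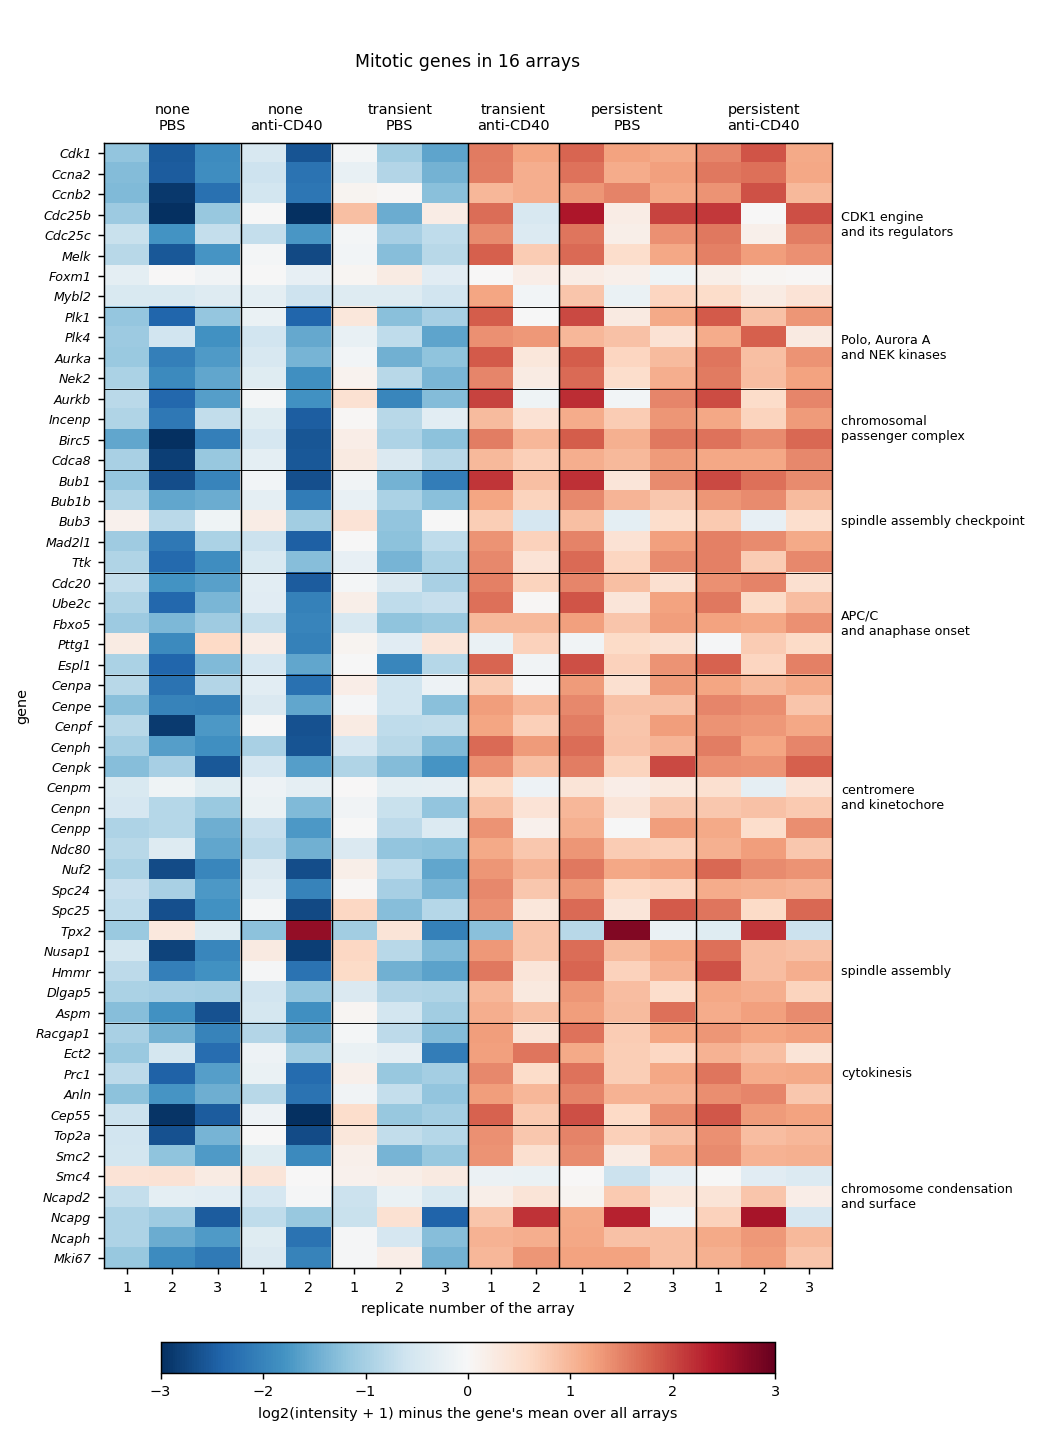
Log2(intensity + 1) of each of the 55 genes in each of the 16 arrays, minus the gene's own mean over the arrays (colour, from −3 to 3, and values beyond 3 share the end colour), with genes ordered by role and arrays by group and replicate number. Nearly all genes pass from blue without antigen to red in the 3 groups at the right, while Foxm1, Cenpm and Bub3 stay pale, Smc4 runs the other way, and Tpx2 follows replicate 2.

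**Figure D2:**
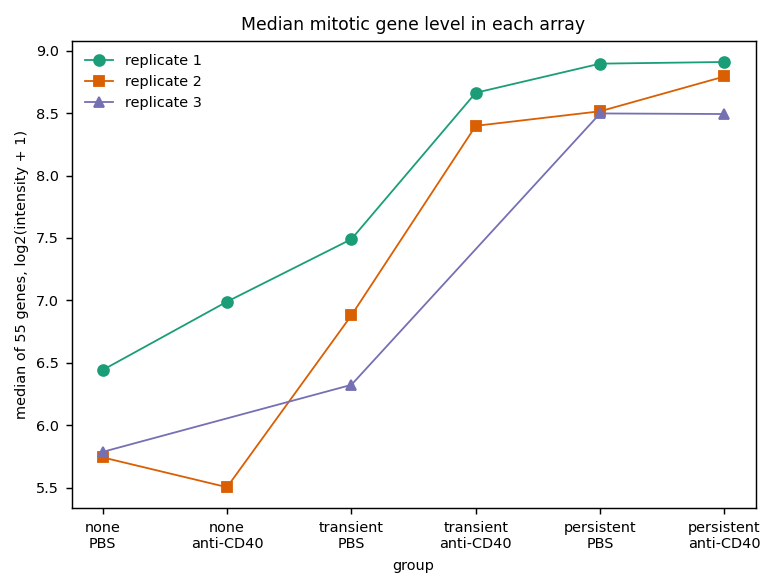
Median log2(intensity + 1) of the 55 genes in each array (y axis) by group (x axis), with arrays of the same replicate number joined by a line, which marks the number only. Transient antigen with anti-CD40 (8.66 and 8.40) lies beside persistent antigen with PBS (8.50 to 8.90). Transient antigen with PBS (6.32 to 7.49) lies below both and overlaps no antigen (5.74 to 6.44 with PBS, 5.50 and 6.99 with anti-CD40).

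Persistent antigen with PBS was compared first with no antigen, asking how far cells under continuing stimulation differ in division genes at 60 h. Of the 55 genes 43 rose and 0 fell (limma, Benjamini-Hochberg adjusted p under 0.05 over 18193 genes), where 2.2% of all genes were called higher and 1.36% lower. With the replicate block 51 rose and 1 fell, against 9.93% of all genes called higher and 6.79% lower. Over the 55 the median difference was 2.66 on the log2 scale, against −0.03 over all genes, and within replicates 1, 2 and 3 it was 2.34, 2.67 and 2.63. In 50 genes every persistent array lay above every array without antigen, a pattern that 8.4% of all genes showed, and in 1 (Smc4) below them, as in 9.64% of all genes. The largest differences were those of Birc5 (3.75 ± 0.52), Cdc25b (3.56 ± 1.03 without the block, called only with it), Ccnb2 (3.47 ± 0.48) and Cep55 (3.34 ± 0.72). Without replicate 1 of persistent antigen 21 genes were called, and without replicate 3 of it or replicate 2 of no antigen 26.

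Transient antigen with PBS was likewise compared with no antigen, asking how far cells after the short exposure differ in division genes at 60 h. In the fit without the block 0 of the 55 genes was called, where 0.0934% of all genes were called higher and 0.033% lower. In that fit 10 of the 55 had an unadjusted p under 0.05, against 845 of all 18193 genes. With the replicate block 17 rose and 0 fell, against 2.02% and 0.868% of all genes. In 10 genes the transient arrays all lay above those without antigen and in 0 below, against 7.08% and 3.04% of all genes. Their median difference was 0.73, against 0.03 over all genes. It was 0.93, 0.99 and 0.38 within replicates 1, 2 and 3, and 38 of the 55 genes were higher in each of the 3. Among the 17, Cdc25b, a phosphatase that activates CDK1, was higher by 1.89 ± 0.23 (adjusted p = 8.4e-05 with the block), Ccnb2 by 1.78 ± 0.35 (0.0058) and Birc5 by 1.60 ± 0.29 (0.0029). The count with the block was 4 without replicate 2 of transient antigen, 6 without its replicate 1 and 10 without replicate 2 of no antigen.

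Set directly against transient antigen, persistent antigen with PBS gave 12 higher genes and 0 lower, where 0.605% of all genes were called higher and 0.324% lower. With the block 51 rose and 1 fell, against 5.99% and 5.44% of all genes. The median difference was 1.71, against −0.05 over all genes, and 1.42, 1.64 and 2.14 within the replicates. In 44 genes every persistent array lay above every transient one, as in 6.06% of all genes, and in 1 (Smc4) below, as in 11.4%. The 12 were Ccna2, Bub1b, Ttk, Fbxo5, Cenpe, Cenph, Cenpk, Ndc80, Dlgap5, Aspm, Racgap1 and Anln, and their differences ran from 1.66 (Dlgap5) to 2.72 (Cenpk). The count fell to 1 without replicate 3 of transient or replicate 1 of persistent antigen, to 2 without replicate 2 of transient antigen and to 3 without replicate 3 of persistent antigen. It was 25 after cyclic loess scaling between arrays. This comparison shares its arrays with both comparisons against no antigen.

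**Figure D3:**
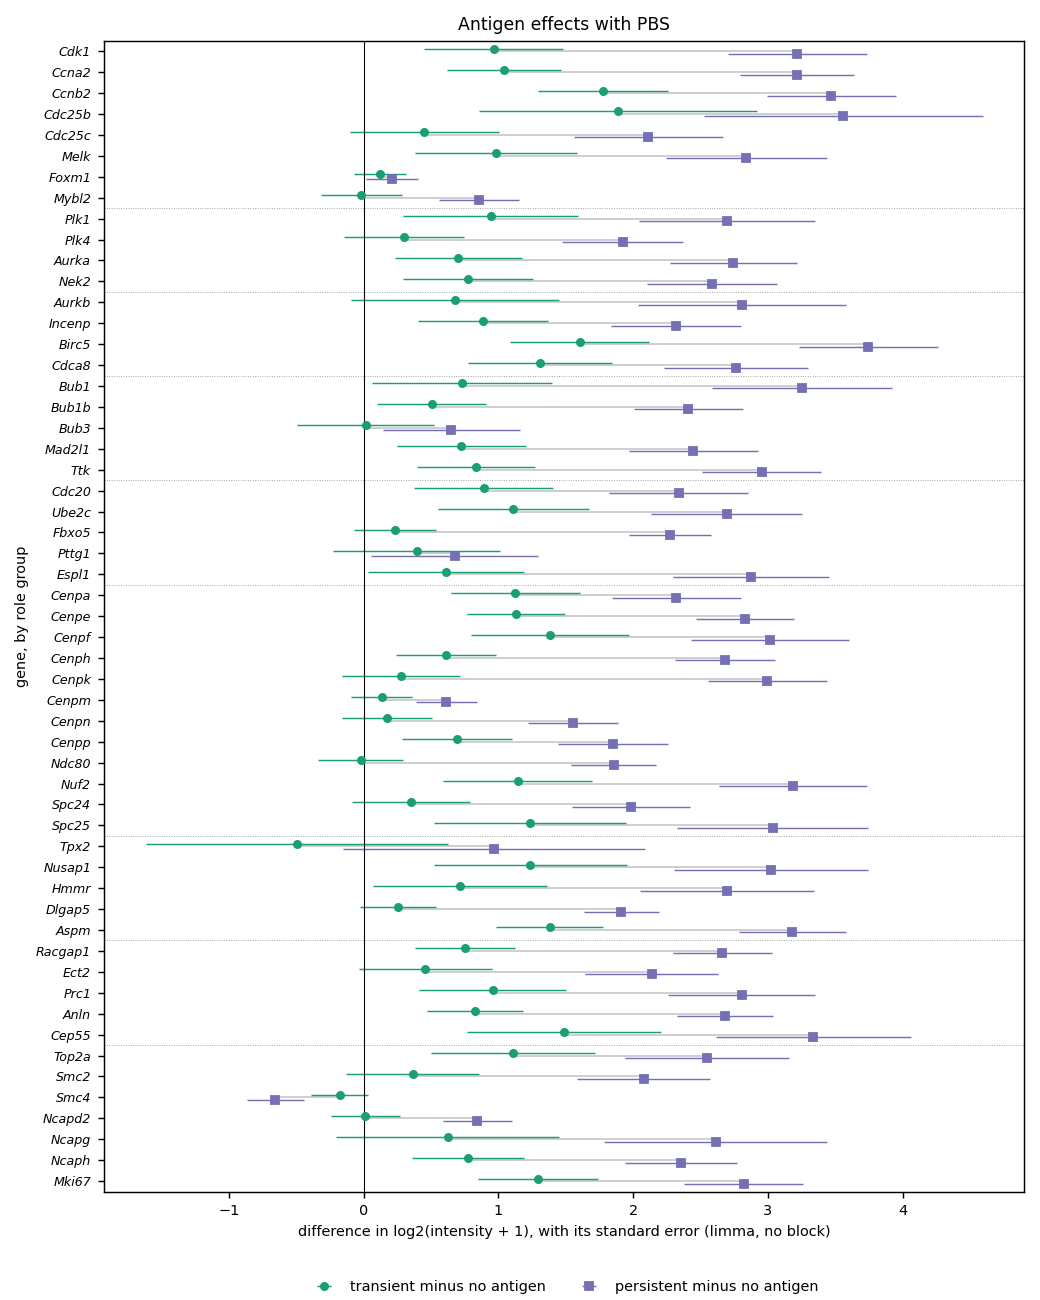
Difference in log2(intensity + 1) from no antigen for each of the 55 genes, all with PBS (circles, transient antigen and squares, persistent antigen; bars are standard errors from limma without the block). Both sets of points share the arrays without antigen. For persistent antigen 54 of 55 points lie above 0, and only Smc4 lies below it. Most circles lie between 0 and 2.

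The CDK1 engine includes the kinase Cdk1, its partners cyclin A2 (Ccna2) and cyclin B2 (Ccnb2), the activating phosphatases Cdc25b and Cdc25c, the kinase Melk, and the transcription factors Foxm1 and Mybl2 (B-MYB). Under persistent antigen 4 of these 8 genes rose and 7 with the block, with a median difference of 3.03. The log2 intensities of Ccna2 with PBS were 7.94, 6.76 and 7.38 without antigen, 9.02, 8.36 and 7.84 after transient antigen and 10.88, 10.37 and 10.48 under persistent antigen. The arrays with anti-CD40 gave 8.63 and 7.03, then 10.78 and 10.33, then 10.84, 10.90 and 10.40 in that order. Every persistent array, with or without anti-CD40, lay above every array of transient antigen with PBS, and transient antigen with anti-CD40 lay with them. Ccna2 rose by 3.22 ± 0.42 against no antigen (adjusted p = 7.8e-04) and by 2.17 ± 0.42 against transient antigen (adjusted p = 0.026). After transient antigen it was higher by 1.04 ± 0.24 only in the fit with the block (adjusted p = 0.022).

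Cdk1 itself gave 7.56, 6.22 and 6.85 without antigen, 8.69, 7.70 and 7.14 after transient and 10.47, 9.94 and 9.87 under persistent antigen with PBS, and 10.29 and 9.93 after transient antigen with anti-CD40. It rose by 3.22 ± 0.52 from none to persistent antigen (adjusted p = 0.0027). Transient antigen left it 0.97 ± 0.52 above no antigen, and this difference was not called in either fit. Cdc25b was lowest in replicate 2 of every group, with 7.08, 4.37 and 7.04 without antigen and 10.59, 8.38 and 10.20 under persistent antigen with PBS. Its difference of 3.56 ± 1.03 (standard error without the block) was called with the block (adjusted p = 5.9e-09) and not without it (0.085). Foxm1 gave 5.60, 5.92 and 5.79 without and 6.13, 6.05 and 5.76 with persistent antigen, and these arrays overlapped. The difference of 0.21 ± 0.19 (95% interval −0.20 to 0.62) was not called in either fit, and its other 3 probe sets differed by 0.04 to 0.55. Mybl2 rose only with the block, by 0.86 ± 0.22 in that fit (adjusted p = 0.0084). Transient antigen left Mybl2 at −0.02 ± 0.30 from no antigen in the fit without the block, not called.

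The Polo, Aurora A and NEK kinases build the spindle poles: Plk1 and Aurka act in centrosome maturation, Plk4 in centriole duplication and Nek2 in centrosome separation. All 4 rose under persistent antigen in both fits, by 1.92 (Plk4) to 2.74 (Aurka). In the PBS arrays Aurka stood at 5.63, 4.69 and 5.04 without antigen, 6.65, 5.28 and 5.53 after transient antigen and 8.55, 7.36 and 7.67 under persistent antigen. In mice given anti-CD40 the values were 6.25 and 5.33 without antigen, 8.57 and 7.07 with transient and 8.34, 7.62 and 8.09 with persistent antigen. Replicate 1 was the highest of every group. The arrays of transient antigen with PBS overlapped those without antigen, while all 3 persistent arrays stood above both. Aurka rose by 2.74 ± 0.47 (adjusted p = 0.0044). After transient antigen Plk1 (0.94 ± 0.23), Aurka (0.70 ± 0.18) and Nek2 (0.77 ± 0.21) rose with the block, at adjusted p of 0.027, 0.035 and 0.049. Plk4, at 0.30 ± 0.24, did not pass.

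The chromosomal passenger complex corrects wrong attachments and later works at the cleavage site. Aurkb is its kinase, Incenp its scaffold, Birc5 (survivin) and Cdca8 (borealin) its targeting subunits. Of the 4 genes 3 rose under persistent antigen, and all 4 with the block, by 2.32 (Incenp) to 3.75 (Birc5). With PBS, Birc5 gave log2 intensities of 5.93, 4.35 and 5.44 without antigen, 7.69, 6.56 and 6.27 after transient antigen and 9.31, 8.57 and 9.07 under persistent antigen. With anti-CD40 the values were 6.98 and 4.94, 9.02 and 8.49 and 9.12, 8.92 and 9.22 in the same order of regimes. Among the PBS arrays, those of transient antigen stood above all without antigen and below all persistent ones, while replicate 1 without antigen and with anti-CD40 overlapped them. Birc5 rose by 3.75 ± 0.52 against no antigen (adjusted p = 0.0011). Against transient antigen the difference of 2.14 ± 0.52 (standard error without the block) passed only with the block (adjusted p = 4.7e-05, 0.071 without). Cdca8 also did not overlap between transient and no antigen with PBS, but its difference of 1.31 ± 0.36 missed the threshold with the block (adjusted p = 0.053).

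The spindle assembly checkpoint holds back anaphase. Ttk (MPS1) and Bub1 are its kinases, Bub1b (BUBR1), Bub3 and Mad2l1 (MAD2) its inhibitory subunits. Under persistent antigen 4 of 5 rose, and all 5 with the block. The log2 intensities of Ttk with PBS were 5.50, 4.08 and 4.54 without antigen, 6.16, 5.01 and 5.45 after transient antigen and 8.11, 7.05 and 7.83 under persistent antigen. The arrays with anti-CD40 gave 5.95 and 5.13, then 7.85 and 6.81, then 7.92, 7.15 and 7.83 in that order. The persistent arrays with PBS lay above every array of transient antigen with PBS. Ttk rose by 2.95 ± 0.44 against no antigen (adjusted p = 0.0017) and by 2.12 ± 0.44 against transient antigen (0.038). Bub1 had the largest difference of the 5, 3.25 ± 0.67. Bub3, which also has roles outside mitosis, changed least, by 0.65 ± 0.51 (standard error without the block). The call rested on the block (adjusted p = 0.0034, 0.72 without). The arrays of Bub3 overlapped at 9.89, 8.93 and 9.62 without and 10.66, 9.45 and 10.28 with persistent antigen. In each replicate number the persistent array of Bub3 was the higher one.

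Around the APC/C, Cdc20 is its mitotic activator, Ube2c the ubiquitin-conjugating enzyme that serves it, Fbxo5 (EMI1) its inhibitor in S and G2 phase, Pttg1 (securin) one of its targets and Espl1 (separase) the protease securin restrains. Under persistent antigen 4 of these 5 rose in both fits. In the PBS arrays Fbxo5 stood at 7.09, 6.82 and 7.09 without antigen, 7.70, 6.95 and 7.05 after transient antigen and 9.39, 9.01 and 9.41 under persistent antigen. In mice given anti-CD40 the values were 7.45 and 6.19 without antigen, 9.14 and 9.14 with transient and 9.38, 9.32 and 9.54 with persistent antigen. Arrays with transient antigen and PBS overlapped those without antigen, and all 3 persistent arrays lay more than 1 unit above both. Fbxo5 rose by 2.27 ± 0.31 against no antigen (adjusted p = 8.5e-04) and by 2.04 ± 0.31 against transient antigen, the smallest p of the 55 genes there (0.0065). Transient against no antigen gave 0.23 ± 0.31 (95% interval −0.42 to 0.89), not called. Ube2c was higher after transient antigen by 1.11 ± 0.18 with the block (adjusted p = 0.0015). Whether its response differs from that of Fbxo5 was not tested. Pttg1 was not called in any comparison. Its brightest probe set differed by 0.68 ± 0.62 between persistent and no antigen, and its other 2 by 1.47 and −0.08.

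Of the 12 centromere and kinetochore genes 11 rose under persistent antigen, and all 12 with the block. Cenpa encodes the histone H3 variant that marks centromeres. Cenph, Cenpk, Cenpm, Cenpn and Cenpp belong to the inner kinetochore network, Ndc80, Nuf2, Spc24 and Spc25 form the complex that grips microtubules, and Cenpe and Cenpf sit on the outer kinetochore. With PBS, Cenpe gave log2 intensities of 5.65, 4.89 and 4.88 without antigen, 6.86, 6.30 and 5.65 after transient antigen and 8.35, 7.78 and 7.78 under persistent antigen. With anti-CD40 the values were 6.46 and 5.33, 8.14 and 7.90 and 8.35, 8.28 and 7.73 in the same order of regimes. Cenpe rose by 2.83 ± 0.36 against no antigen (adjusted p = 7.5e-04) and by 1.70 ± 0.36 against transient antigen (0.046), with no overlap in either. Its transient arrays touched those without antigen at 5.65.

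After transient antigen 4 of the 12 kinetochore genes rose with the block and the other 8 did not pass. Cenpa (1.12 ± 0.23), Cenpe (1.13 ± 0.19), Cenpf (1.38 ± 0.33) and Spc25 (1.23 ± 0.29) rose with the block, at adjusted p of 0.011, 0.0019, 0.027 and 0.022. Ndc80, at −0.02 ± 0.32, and Cenpk, at 0.28 ± 0.44, were not called, yet persistent antigen raised them above transient antigen by 1.88 ± 0.32 (adjusted p = 0.012) and 2.72 ± 0.44 (0.01). Ndc80 and its partner Spc25 encode subunits of one complex, and whether their responses to transient antigen differ was not tested. Cenph was near the level of the median probe set without antigen, at 4.34, 3.70 and 3.51, so its fold there is not exact. It gave 4.85, 4.51 and 4.02 after transient and 7.03, 6.21 and 6.36 under persistent antigen. Cenpm changed least, by 0.61 ± 0.19, called only with the block (adjusted p = 0.028).

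For spindle assembly, Tpx2 activates Aurora A and nucleates microtubules, Nusap1, Hmmr and Dlgap5 bind spindle microtubules, and Aspm focuses the spindle poles. Of these 5 genes 4 rose under persistent antigen in both fits, and Aspm had the smallest p of all 55 genes. The log2 intensities of Aspm with PBS were 6.30, 5.74 and 4.96 without antigen, 7.61, 7.01 and 6.51 after transient antigen and 8.83, 8.51 and 9.21 under persistent antigen. The arrays with anti-CD40 gave 7.04 and 5.72, then 8.66 and 8.47, then 8.68, 8.79 and 8.98 in that order. The 3 PBS groups did not overlap, with every transient array between those without antigen and those with persistent antigen. Aspm rose by 3.18 ± 0.40 against no antigen (adjusted p = 7.2e-04). After transient antigen it was higher by 1.38 ± 0.29, called with the block (adjusted p = 0.011) and not without it (0.42).

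Tpx2 followed the replicate number. Its brightest probe set gave 6.44, 7.88 and 7.20 without antigen, 6.53, 7.96 and 5.54 after transient and 6.73, 10.33 and 7.36 under persistent antigen with PBS, replicate 2 being the highest each time. The difference of 0.97 ± 1.12 (standard error without the block) between persistent and no antigen was not called in either fit. That of 1.46 ± 1.12 (standard error also without it) between persistent and transient antigen passed only with the block (adjusted p = 0.021). A second probe set moved like it, by 0.85, while the other 2 differed by 2.93 and 2.77, the size seen in the other spindle genes. For transient against no antigen the brightest probe set gave −0.50 and the latter pair 1.04 and 0.72. The value for Tpx2 therefore depends on which of its probe sets is read.

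The 5 genes of cytokinesis all rose under persistent antigen in both fits, by 2.14 (Ect2) to 3.34 (Cep55). Racgap1 and Ect2 activate RhoA at the cleavage site, Prc1 bundles the midzone microtubules, Anln (anillin) scaffolds the contractile ring, and Cep55 recruits the machinery that severs the bridge between the daughter cells. In the PBS arrays Anln stood at 5.22, 4.67 and 4.98 without antigen, 6.35, 5.73 and 5.27 after transient antigen and 7.93, 7.48 and 7.50 under persistent antigen. In mice given anti-CD40 the values were 5.63 and 4.23 without antigen, 7.70 and 7.45 with transient and 7.85, 7.92 and 7.25 with persistent antigen. With PBS the 3 groups did not overlap, and transient antigen lay nearer to none than to persistent. Anln rose by 2.68 ± 0.35 against no antigen (adjusted p = 8.0e-04) and by 1.86 ± 0.35 against transient antigen (0.024). After transient antigen Prc1 (0.96 ± 0.23) and Cep55 (1.49 ± 0.30) rose with the block, at adjusted p of 0.027 and 0.0088.

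Among the genes of chromosome condensation and the chromosome surface are topoisomerase II alpha (Top2a), which untangles sister chromatids, the condensin subunits Smc2, Smc4, Ncapd2, Ncapg and Ncaph, and Mki67, the gene of the proliferation marker Ki-67, which coats mitotic chromosomes. Of the 7 genes 4 rose under persistent antigen, and with the block 6 rose and 1 fell. With PBS, Mki67 gave log2 intensities of 9.13, 8.38 and 8.13 without antigen, 10.23, 10.45 and 8.85 after transient antigen and 11.46, 11.47 and 11.17 under persistent antigen. With anti-CD40 the values were 9.83 and 8.26, 11.25 and 11.59 and 11.32, 11.51 and 11.09 in the same order of regimes. Persistent antigen and transient antigen with anti-CD40 all lay above 11, whereas transient antigen with PBS reached 10.45 at most. Mki67 rose by 2.82 ± 0.44 against no antigen (adjusted p = 0.0024). It was higher by 1.29 ± 0.30 after transient antigen with the block (adjusted p = 0.02).

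Smc4 ran against the other genes, including Smc2, the protein it pairs with in both condensins. It gave 12.26, 12.28 and 12.11 without antigen, 11.97, 12.02 and 12.12 after transient and 11.87, 11.20 and 11.60 under persistent antigen with PBS. All persistent arrays lay below all others of these groups. With the block it fell by 0.66 against no antigen (SE 0.15, adjusted p = 0.0036) and by 0.48 against transient antigen (SE 0.15, adjusted p = 0.044). Without the block neither difference was called (0.13 and 0.41). The second call was lost when either replicate 2 or 3 of either group was left out or the intensity trend dropped, and its direction held. Its other 2 probe sets differed by −1.14 and −1.17 between persistent and no antigen. Smc2 rose by 2.08 ± 0.49 (adjusted p = 0.031).

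**Figure D4:**
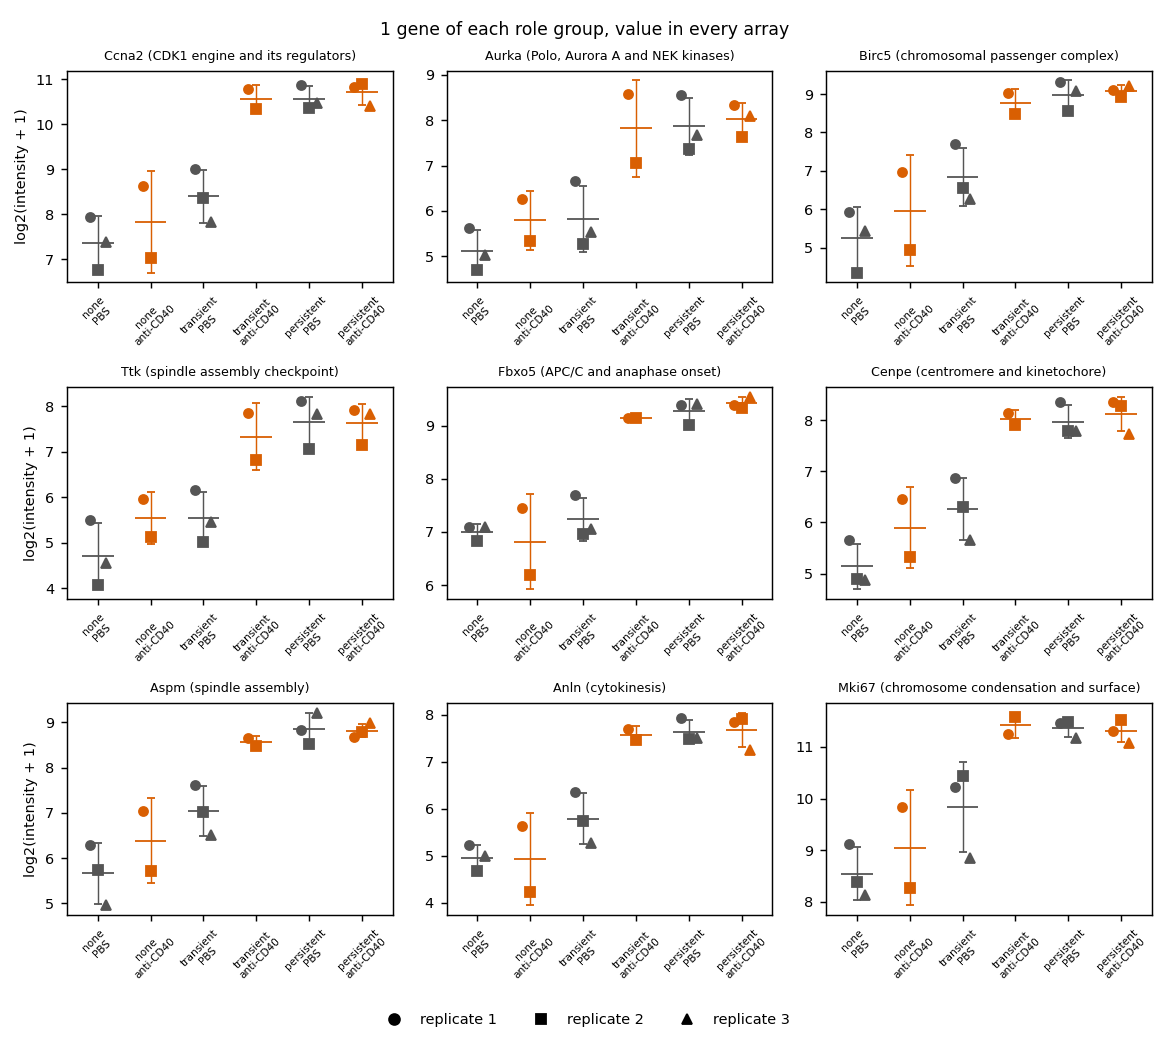
Log2(intensity + 1) in every array for the gene of each of the 9 role groups with the smallest p between persistent and no antigen (symbols, replicate numbers; horizontal line, group mean; bar, SD; grey, PBS; orange, anti-CD40). In each panel transient antigen with anti-CD40 lies beside the persistent groups, while transient antigen with PBS lies below them. The y axes do not start at 0 and differ between panels.

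Anti-CD40 was set against PBS within each regime to ask whether the division genes differ in T cells from mice given the antibody. Which cells responded to it was not measured. Under transient antigen 4 of the 55 rose, Fbxo5 (1.91 ± 0.34, adjusted p = 0.029), Cenph (2.38 ± 0.41, 0.026), Cenpk (2.45 ± 0.49, 0.04) and Ndc80 (1.93 ± 0.35, 0.03), where 0.522% of all genes were called higher and 0.115% lower. With the block 46 rose and 0 fell, against 7.59% and 2.92% of all genes. The median difference was 1.59, against −0.03 over all genes, and 1.33 and 1.60 within replicates 1 and 2. In 40 genes both arrays with anti-CD40 lay above all those with PBS, as in 10.5% of all genes, and in 1 (Smc4) below, as in 11.1%. Leaving out replicate 2 or 3 of transient antigen with PBS or replicate 1 of transient antigen with anti-CD40 gave 0 calls, and leaving out replicate 2 of the latter gave 2. The 9 genes not called with the block were Ccnb2, Foxm1, Cdca8, Bub3, Pttg1, Cenpa, Cenpm, Tpx2 and Smc4.

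Ccna2 showed the size of this difference, with 9.02, 8.36 and 7.84 against 10.78 and 10.33, and rose by 2.03 ± 0.28 with the block (adjusted p = 1.1e-04, 0.06 without). By role, all 5 cytokinesis genes and all 4 Polo, Aurora A and NEK kinases rose with the block. So did 10 of 12 kinetochore genes, 4 of 5 checkpoint genes, 4 of 5 around the APC/C, 4 of 5 spindle genes, 6 of 7 of condensation, 6 of 8 of the CDK1 engine and 3 of 4 passenger genes. The largest difference was that of Bub1, at 2.58 ± 0.35 (adjusted p = 1.1e-04).

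Without antigen 0 of the 55 genes was called between anti-CD40 and PBS in either limma fit. Without and with the block 0 and 6 of the 55 had an unadjusted p under 0.05, against 317 and 965 of all 18193 genes. Of all genes 0% and 0.0055% were called higher. The median difference was 0.26, but 0.51 in replicate 1 and −0.08 in replicate 2, so the 2 pairs did not run together. Ccna2 gave 8.63 and 7.03 against 7.94, 6.76 and 7.38, a difference of 0.47 ± 0.47 (95% interval −0.54 to 1.49). Under persistent antigen 0 of the 55 was called in either fit, where 0% of all genes were called. In both fits 0 of the 55 had an unadjusted p under 0.05, against 110 and 484 of all genes without and with the block. The median difference was 0.10, and the extremes were −0.23 (Ncapg) and 0.36 (Bub1). For Ccna2 it was 0.14 ± 0.42 (−0.77 to 1.04) and for Mki67 −0.06 ± 0.44 (−1.01 to 0.89), so differences of about 1 unit remain within the intervals.

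**Figure D5:**
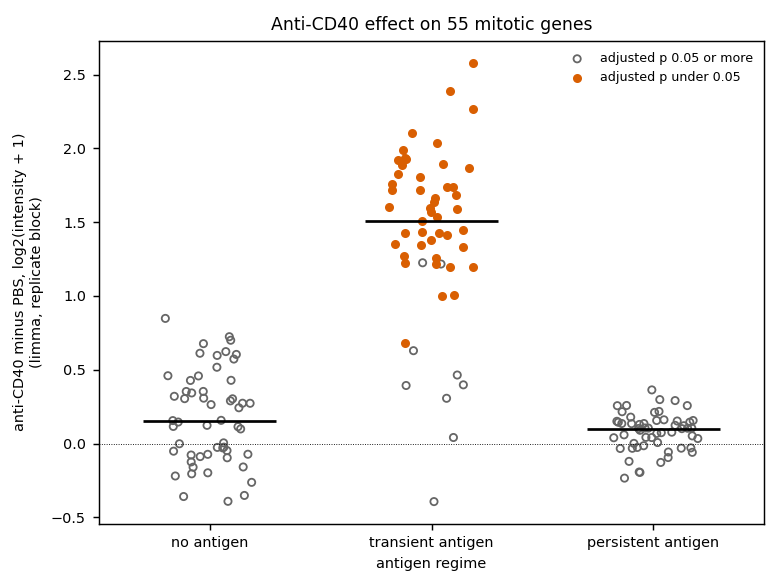
Difference between anti-CD40 and PBS in log2(intensity + 1) for each of the 55 genes (points) within each antigen regime, from the limma fit with the replicate block (filled, adjusted p under 0.05; line, median of the 55). Under transient antigen 46 points are filled and the median is 1.51, whereas without antigen and under persistent antigen 0 points are filled and the medians are 0.16 and 0.10.

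Whether the anti-CD40 difference depended on antigen duration was tested as an interaction, the difference between persistent and transient antigen with anti-CD40 minus that with PBS. Without the block 0 of the 55 genes was called, and 0% of all genes were called. In that fit 23 of the 55 had an unadjusted p under 0.05, against 628 of all 18193 genes. With the block 26 were lower and 0 higher, against 1.52% of all genes called lower and 0.275% higher, and the median over the 55 was −1.42. Low adjusted p values were those of Ttk (−1.83 ± 0.26, adjusted p = 0.003) and Aurka (−1.78 ± 0.27, 0.0032). The 26 included 4 of 5 cytokinesis genes, 3 of 4 Polo, Aurora A and NEK kinases, 3 of 5 checkpoint genes, 3 of 5 around the APC/C, 2 of 4 passenger genes, 5 of 12 kinetochore genes, 2 of 5 spindle genes, 3 of 8 of the CDK1 engine and 1 of 7 of condensation. This count ranged from 4 to 30 when 1 array was left out, and was 4 without replicate 1 of transient antigen with anti-CD40 or replicate 3 of persistent antigen with PBS. It was 5 without replicate 1 of persistent antigen with anti-CD40, and between 11 and 17 without replicate 2 or 3 of transient antigen with PBS, replicate 2 of transient antigen with anti-CD40, replicate 1 of persistent antigen with PBS or replicate 3 of persistent antigen with anti-CD40.

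With anti-CD40 in both groups, no difference between persistent and transient antigen was called in these genes. Persistent against transient antigen gave 0 of 55 calls in either fit, against 0.0055% and 0.055% of all genes called higher. Without and with the block 0 and 4 of the 55 had an unadjusted p under 0.05, against 355 and 1112 of all 18193 genes. The median difference was 0.23, and 0.08 and 0.47 within replicates 1 and 2. Of the 55 differences 46 were positive. Within both replicate numbers 34 of the 55 genes were higher under persistent antigen and 3 were lower. For Aspm the difference was 0.25 ± 0.44 (95% interval −0.70 to 1.20) and for Ttk 0.30 ± 0.49 (−0.75 to 1.36). Transient antigen with anti-CD40 was also set against persistent antigen with PBS, where 0 of 55 was called in either fit. Of all genes 0% were called without the block, and 0.022% higher and 0.033% lower with it. An unadjusted p under 0.05 was found for 0 and 5 of the 55, against 633 and 1887 of all 18193 genes. There the median was −0.12, Ccna2 differed by −0.02 ± 0.47 (−1.03 to 0.99) and Anln by −0.06 ± 0.40 (−0.91 to 0.78). A missed threshold does not show equal levels, and these intervals, from the fit without the block, allow differences of about 1 unit either way.

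Against no antigen with anti-CD40, transient antigen with anti-CD40 gave 5 higher genes and 0 lower, where 0.423% and 0.148% of all genes were called. They were Ccna2 (2.72 ± 0.52), Fbxo5 (2.32 ± 0.37), Cenph (3.27 ± 0.45), Ndc80 (2.09 ± 0.39) and Anln (2.65 ± 0.43), with adjusted p of 0.034, 0.017, 0.012, 0.029 and 0.017. With the block 48 rose and 0 fell, against 10.5% and 3.48% of all genes, and the median difference was 2.18. Persistent antigen with anti-CD40 gave 33 higher genes and 0 lower, against 1.64% and 0.737% of all genes. With the block 50 rose and 0 fell, against 10.9% and 5.5%, and the median was 2.42. The 2 comparisons share the same 2 arrays without antigen, of which replicate 1 was the higher in both the median and Ccna2. Leaving it out raised the count for transient antigen from 5 to 33. Without replicate 2 of no antigen both counts were 0, and without replicate 1 or 2 of transient antigen with anti-CD40 the first was 0 or 1. Without replicates 1, 2 or 3 of persistent antigen with anti-CD40 the second count was 10, 14 or 15.

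Mitotic genes outside the 55 were read from 3 lists. Of 57 other mitotic genes measured, 23 rose and 0 fell between no and persistent antigen with PBS (38 and 0 with the block), with a median of 1.40. Of all genes 2.2% were called higher and 1.36% lower there, and 9.93% and 6.79% with the block. The smallest p were those of Ska1, which couples kinetochores to microtubules (2.86 ± 0.38, adjusted p = 8.0e-04), Kntc1, a checkpoint protein (2.39 ± 0.32, 8.9e-04), and Cenpw of the inner kinetochore (1.79 ± 0.25, 0.0012). Against transient antigen 8 of the 57 rose (40 with the block), where 0.605% of all genes were called higher (5.99% with the block). Transient against no antigen gave 0 (7 with the block), where 0.0934% of all genes were called higher (2.02% with the block). Anti-CD40 under transient antigen raised 3, Kntc1 (2.29 ± 0.36), Cenpw (1.54 ± 0.28) and Ska1 (2.30 ± 0.43), and 37 with the block. Of all genes 0.522% were called higher in that comparison, and 7.59% with the block.

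The standing subunits of the APC/C with its other activator CDH1 (Fzr1), 13 genes, showed smaller differences. Under persistent antigen 0 rose without the block and 7 with it, against 2.2% and 9.93% of all genes. The median was 0.48, and the smallest p was that of Cdc16 (0.63 ± 0.22, adjusted p = 0.17, 0.011 with the block). Of 11 cohesin genes, whose ring holds sister chromatids together, Esco2, an acetyltransferase that locks the ring in S phase, rose by 1.46 ± 0.34 (adjusted p = 0.026). With the block 5 cohesin genes rose and 2 fell, against 9.93% and 6.79% of all genes. Those that fell were the cohesin loader Nipbl (−1.02 ± 0.16, adjusted p = 1.0e-04) and the subunit Stag2 (−0.61 ± 0.19, 0.035). The list's median was 0.51.

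The probe sets not chosen give a further view of the same genes. Of the 55 genes 38 had several, 71 further probe sets in all, and 6 of the 71 had the opposite sign to the chosen one between persistent and no antigen with PBS. For persistent against transient antigen it was 4, for anti-CD40 under transient antigen 6, and for transient against no antigen 20. In 2 genes without antigen and PBS, and in 1 with anti-CD40, the group mean lay below the median probe set, where signal is not set apart from background.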

How the data were processed

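RNA of 16 samples, taken up in Trizol and amplified in 2 rounds per the labels' protocols, was measured on 1 Affymetrix array each, with 45101 probe sets. The deposited values are RMA intensities on a linear scale, made by the authors, with no version given in the submitters' processing notes. They were used as log2(intensity + 1) without further scaling, which shrinks differences between dim genes. Of the probe sets 34945 had 1 gene symbol and gave 18193 genes, each read from its probe set with the highest mean. No gene was left out for low values.

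A linear model of 6 group means over all 16 arrays was fitted in R 4.3.3 with limma 3.58.1, with moderated statistics and an intensity trend. Tables were read with the data.table package (version 1.17.8). Simulated data were also fitted, where only the recovery of large added differences with the replicate block was required. Smaller differences, the fit without the block and the share of false calls had no such requirement. Benjamini-Hochberg adjustment ran over 18193 genes, and an adjusted p under 0.05 was called. Differences are given ± their standard error, taken from either fit. Standard errors of the fits with and without the block differ in size and are not to be compared. The 95% intervals come from the fit without the block. Groups came from the labels, and 11 comparisons were made.

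The replicate number was added as a block in a second fit. In 36 pairs of arrays sharing a number, deviations from group means had correlations of 0.48 to 0.81 (median 0.68). The median was −0.53 in 70 pairs with different numbers, and all 16 arrays matched their own number best. Deviations from a group's mean cancel out within the group, so the negative median is partly built in and is no separate evidence. The replicate numbers come from the titles. That arrays sharing a number belong together is taken from these data, not from the labels.

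The 55 genes, the 9 role groups and the other lists were chosen with earlier results of these data known. Values in every array are given for the gene of each role group with the smallest p between persistent and no antigen with PBS. Named besides are extremes of each group, genes called in comparisons with 10 or fewer calls, genes called lower, and up to 3 genes of each other list by p. Cdk1, Foxm1, Tpx2, Bub3, Pttg1 and further examples were named after their values were seen. Promoters came from a RefSeq table of GRCm38.p6. The number of arrays limits the precision.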

Additional observations from a re-analysis of the deposited data

Results flagged for a closer look

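The difference that anti-CD40 made to the mitotic genes was tested against antigen duration, and with the replicate block it was smaller under persistent than under transient antigen in 26 of the 55 genes (limma, adjusted p under 0.05). Among kinases of the spindle and checkpoint, the interaction was −1.83 ± 0.26 for Ttk and −1.78 ± 0.27 for Aurka. Among kinetochore genes it was −2.06 for Cenph, −1.65 for Ndc80, −1.42 for Cenpe and −2.28 for Cenpk. For Ccna2 and Cdk1 of the CDK1 engine it was −1.90 and −1.96, for Fbxo5 −1.79, for Birc5 −1.80, for Anln −1.63 and for the condensin gene Ncapg −1.97. The adjusted p of these 12 genes ran from 0.003 (Ttk) to 0.041 (Cdk1) with the block, and 0 of the 55 passed without it. Transient antigen with anti-CD40 had 2 arrays, of replicate numbers 1 and 2.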

How the results depend on the processing

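Counts below are of the 55 genes past the threshold in either direction. Each called gene that was retested kept its direction under every alternative run. With a replicate block in place of none the counts became 17 for transient and 52 for persistent against transient antigen with PBS. They became 48 and 50 for transient and persistent against no antigen with anti-CD40, 46 for anti-CD40 under transient antigen and 26 for the interaction. The paired fit moved no other count by over 1.5 times. A block for the 4 runs of consecutive array numbers gave 11, 52, 49, 50, 49 and 38 in the same order. Fitting only the compared groups gave 0 for persistent against transient antigen with PBS, 0 for transient and 0 for persistent against no antigen with anti-CD40 and 0 for anti-CD40 under transient antigen. For transient against no antigen with anti-CD40 the count was 11 without the intensity trend, 8 with log2(intensity + 16), 16 with dim genes left out, 14 with a gene's probe sets averaged and 15 after cyclic loess. For anti-CD40 under transient antigen it was 7, 9, 10 and 13 without the trend, without dim genes, with mean probe sets and after cyclic loess. Cyclic loess gave 25 for persistent against transient antigen with PBS. In the fit with the block, mean probe sets gave 11 for transient against no antigen. Replicates 1 and 3 only, added after seeing the data, gave 32 for persistent against transient antigen with PBS, 9 for persistent against no antigen with anti-CD40, 22 for anti-CD40 under transient antigen and 1 for the interaction. The cause of these shifts was not tested.

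Leaving out 1 array at a time gave 21 to 42 for persistent against no antigen and 1 to 16 for persistent against transient antigen with PBS. With anti-CD40 it gave 0 to 33 for transient and 0 to 41 for persistent against no antigen, and for anti-CD40 under transient antigen 0 to 3. With the block the ranges were 4 to 22 for transient against no antigen with PBS and 4 to 30 for the interaction. A group left with 1 array is assumed to vary like the others. Of 32 differences of single genes tested again, 18 lost their call when only the compared groups were fitted, 4 with mean probe sets, and 66 of 190 values when 1 array was left out. Dim values limit the folds of Cenph and Espl1, whose means without antigen and with PBS (3.85 and 3.88) lay below the median probe set (4.37). Those of Bub1 (4.55) and Ttk (4.71) lay little above it, which limits their folds too.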
